A study of Mus musculus with 6 samples.

Results

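Heme and iron handling was followed here through 10 genes that were listed by name: the heme oxygenases Hmox1 and Hmox2, the biliverdin reductase Blvrb, the ferritin subunits Fth1 and Ftl1, the iron exporter Slc40a1, the importers Tfrc and Slc11a2, the iron regulatory protein Ireb2 and the ferritin receptor Ncoa4. All 10 had a row among the 55291 genes of the count table, and all 10 were among the 14290 genes with enough counts to be tested. They were read in RNA-seq libraries of WT mouse embryonic fibroblasts (MEFs), with 2 independent biological replicates in each of 3 groups. The groups were vehicle, MASM7, a small molecule that activates the mitochondrial fusion proteins MFN1 and MFN2, and MFI8, a small molecule that inhibits them. Cells received MASM7 at 1 μM or MFI8 at 20 μM over 6 h, so compound and concentration cannot be told apart when the compounds are set against each other. The WT MEFs had been provided by another laboratory, and the labels give no genotype beyond WT.

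Heme oxygenases open the heme ring and release iron, carbon monoxide and biliverdin, which biliverdin reductases then reduce. Iron enters the cell with transferrin through the transferrin receptor, crosses the endosomal membrane through a divalent metal transporter, is stored in ferritin shells and leaves through ferroportin. Iron regulatory proteins tune this system by binding hairpins, the iron-responsive elements, which block translation when they sit in the 5' untranslated region of ferritin mRNAs and protect the transferrin receptor mRNA when they sit in its 3' untranslated region. Hmox1 is also a well-known stress gene, held down by BACH1 and switched on by NRF2 with its small MAF partners.

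Because ferritin and transferrin receptor mRNAs carry this element on opposite sides of the coding region, the elements are shown first. A search for a C, 5 paired bases, the loop CAGTGN (N being A, C or T) and the 5 partners, with G-T pairs allowed, was run over the GENCODE vM21 transcripts on GRCm38. It matched 4 of the 10 genes and 222 of 21877 genes with a protein-coding transcript (1.01%), of which 141 were among the genes tested. Each line below gives 30 bases from 5' to 3' with the loop in capitals, and the first pair are from ferritin and the other 4 from Tfrc.
Fth1, chr19:9982732-9982761, plus strand, 5' untranslated region: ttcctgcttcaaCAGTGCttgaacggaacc
Ftl1, chr7:45459778-45459807, minus strand, 5' untranslated region: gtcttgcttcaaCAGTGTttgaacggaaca
Tfrc, chr16:32631219-32631248, plus strand, 3' untranslated region: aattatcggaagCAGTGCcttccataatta
Tfrc, chr16:32631598-32631627, plus strand, 3' untranslated region: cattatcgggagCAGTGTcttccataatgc
Tfrc, chr16:32631663-32631692, plus strand, 3' untranslated region: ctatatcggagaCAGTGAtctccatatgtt
Tfrc, chr16:32631710-32631739, plus strand, 3' untranslated region: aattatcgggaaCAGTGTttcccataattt
The fourth gene with a match was Slc40a1, in its 5' untranslated region. A match is a description of the letters, and elements with other pairing were not searched.

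The libraries held between 22791792 and 30677751 counts on genes. Of 9 fibroblast markers, 8 were at 1 TPM or more in every library, and Thy1 lay between 0.283 and 0.751 TPM. TPM is a level per transcript length, scaled to the same sum in every library. The erythroid list summed to 0.476 to 1.18 TPM, with Hbb-bs, Hbb-bt, Hbb-y and Hba-a2 at 0 in all libraries. Of 7 macrophage markers, Adgre1 and C1qa were at 0 and Ptprc reached at most 0.013 TPM, while Cd68, Cd14 and Csf1r were over 1 TPM and the whole list summed to 43.5 and 47.3 TPM in vehicle, 46.4 and 47.5 under MASM7 and 40.0 and 43.3 under MFI8. The endothelial, epithelial and hepatocyte lists summed to between 0.091 and 1.69 TPM. The share of counts on the mitochondrial genome was 1.66% and 1.82% in vehicle, 1.61% and 1.51% under MASM7 and 1.37% and 1.43% under MFI8, and whether this shift has a part in the values below was not tested.

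Ferritin dominated the group in vehicle-treated cells. The mean level of Ftl1 was 1665 TPM and that of Fth1 1094 TPM, and Tfrc followed at 295 TPM. Hmox2 (80.5 TPM, 79.1 to 82.0), Hmox1 (77.2 TPM, 70.3 to 84.1), Slc11a2 (69.7 TPM, 67.7 to 71.8) and Ireb2 (65.2 TPM, 64.4 to 66.1) lay close together, and these ranges over the 2 vehicle libraries overlapped between Hmox2 and Hmox1 and between Hmox1 and Slc11a2. Blvrb was at 25.8 TPM and Ncoa4 at 6.61 TPM, while Slc40a1, the iron exporter, was almost silent at 0.048 TPM. With MASM7 the range of Hmox1 was above that of Hmox2, and under MFI8 it overlapped that of Tfrc, with a mean of 194 TPM for Hmox1 and 211 TPM for Tfrc. The other genes kept the order they had in vehicle.

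MFI8 was set against vehicle to see how heme and iron genes read when mitofusins are inhibited. The level of Hmox1 was 2.48-fold that in vehicle, the level of Tfrc 0.704-fold, that of Ftl1 1.12-fold and that of Slc11a2 0.905-fold (fitted, n = 2 libraries a group), each without overlap between the libraries of the groups. At an adjusted p of 0.05, 0 of the 10 genes passed in edgeR (quasi-likelihood F test, Benjamini-Hochberg over the 14290 genes), and the share of all genes tested was 0%. Slc40a1 entered the test only through its MFI8 libraries and is left out of the next counts. With the replicate number as a block, since same-numbered libraries deviated together, edgeR called 3 of the other 9 members (Hmox1 and Ftl1 higher, Tfrc lower) and 5.04% of the genes tested. That fit leaves little of each gene's own spread to go by. Here and below, its p-values therefore rest largely on the spread shared across genes. Of the 9 members 2 were higher (Hmox1 and Ftl1) and 2 lower (Tfrc and Slc11a2) at an unadjusted p under 0.05 without the block, against 5.21% of the genes tested higher and 4.65% lower (9.86% in all). Both MFI8 libraries lay above both vehicle libraries for 2 of the 9 (20.9% of the genes tested) and below them for 3 (19.3%). Their median log2 fold change was -9.4e-04, against 0.0027 over all genes tested, and with Slc40a1 it was 0.060. DESeq2 called 1 member, Tfrc, and 0.368% of the genes it tested, and limma on log2(TPM + 1) called 0. In bulk RNA, fewer cells of a type and less RNA per cell cannot be told apart.

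**Figure D1:**
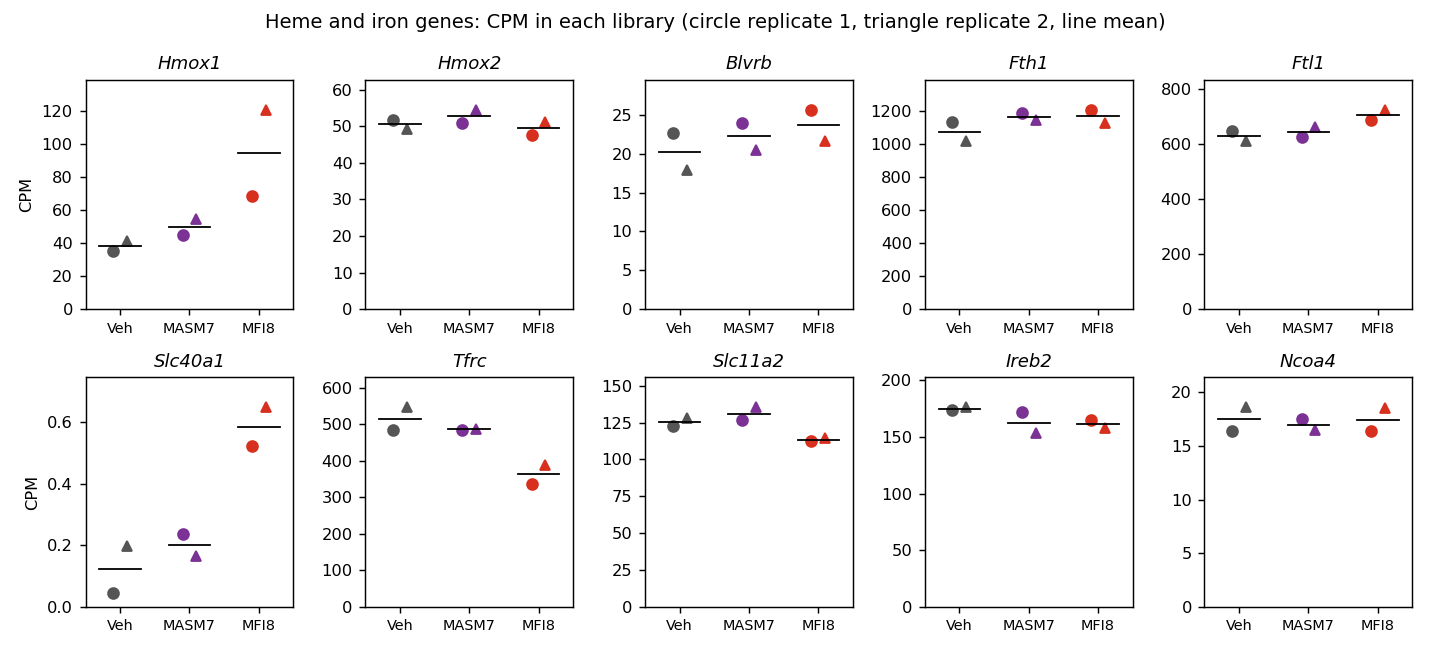
CPM (counts scaled to library size with TMM factors) of the 10 heme and iron genes in each library of vehicle (Veh), MASM7 and MFI8, on linear axes that start at 0, with a circle for replicate 1, a triangle for replicate 2 and a line at the mean of 2 libraries. Hmox1 reached 68.5 and 121 CPM under MFI8 and stayed at or below 54.3 CPM elsewhere, whereas Tfrc was at 337 and 389 CPM under MFI8 and at 484 CPM or above elsewhere.

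Hmox1 encodes the inducible heme oxygenase and lies on chromosome 8 of GRCm38 at 75093621 to 75100589. Counts were 799 and 1041 in vehicle, 1327 and 1653 under MASM7 and 1573 and 3719 under MFI8. As CPM (counts scaled to library size with TMM factors), these were 35.0 and 41.4 in vehicle, 44.9 and 54.3 under MASM7, and 68.5 and 121 under MFI8. The 3 groups did not overlap and stood in the order vehicle, MASM7, MFI8, with the MFI8 libraries far apart from each other (mean 94.5 ± 36.8 CPM under MFI8 and 38.2 ± 4.49 in vehicle, SD, n = 2). Against vehicle the log2 fold change under MFI8 was 1.31 (standard error 0.22, 95% interval 0.83 to 1.79, adjusted p = 0.0924 from edgeR). By unadjusted p (1.3e-04) Hmox1 ranked 18 of the 14290 genes, and the smallest adjusted p of any gene was the same 0.0924, shared by 20 genes. The size rested on which MFI8 library was kept. It was 1.66 without MFI8 replicate 1 (edgeR adjusted p = 6.7e-05) and 0.84 without MFI8 replicate 2 (edgeR adjusted p = 0.0475), where the single remaining library is assumed to vary like the other groups. With any of the other 4 libraries left out the edgeR adjusted p was between 0.175 and 0.401, and with the replicate block it was 8.9e-11.

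Hmox2 encodes the constitutive heme oxygenase (chromosome 16, 4726361 to 4766742). It gave 51.7 and 49.3 CPM in vehicle, 50.9 and 54.6 under MASM7 and 47.7 and 51.1 under MFI8, so that the groups overlapped. Under MFI8 the log2 fold change was -0.029 with a 95% interval of -0.18 to 0.13. An exon of Hmox2 overlaps one of Cdip1 on the opposite strand, a gene with up to 1561 counts, and the strand setting of the counting is not given in the sources used here. Per length, Hmox1 made up 46.2% and 51.5% of the summed TPM of both heme oxygenases in vehicle, 52.7% and 55.8% under MASM7, and 64.5% and 74.9% under MFI8. Both MFI8 libraries were above the other 4 in this share.

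Blvrb encodes biliverdin reductase B (chromosome 7, 27447978 to 27466144). Its values were 22.7 and 17.9 CPM in vehicle, 24.0 and 20.5 under MASM7 and 25.7 and 21.7 under MFI8, which overlapped between all groups. In each group replicate 1 was the higher library, and within each number the MFI8 library was above the vehicle library. The log2 fold change under MFI8 was 0.22 (95% interval -0.074 to 0.52, edgeR adjusted p = 0.607, and 0.0961 with the replicate block). It ranged from 0.060 without vehicle replicate 2 to 0.40 without vehicle replicate 1.

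Ferritin light chain, Ftl1 (chromosome 7, 45457944 to 45459884), gave 649 and 613 CPM in vehicle, 625 and 661 under MASM7 and 689 and 726 under MFI8. Both MFI8 libraries were above the other 4, and the log2 fold change was 0.16 (95% interval 0.041 to 0.29, unadjusted p = 0.0142 and adjusted p = 0.412 from edgeR, and adjusted p = 0.0366 with the replicate block). Ferritin heavy chain, Fth1 (chromosome 19, 9980598 to 9985098), which carries the ferroxidase site, read 1130 and 1018 CPM in vehicle, 1184 and 1142 under MASM7 and 1207 and 1129 under MFI8. The second MFI8 library was just below the first vehicle library, while within each replicate number the MFI8 library was the higher. The log2 fold change under MFI8 was 0.12 (95% interval -0.016 to 0.26, edgeR adjusted p = 0.546, and 0.110 with the replicate block), with 0.048 without vehicle replicate 2 and 0.20 without vehicle replicate 1. Summed per length, both ferritin subunits reached 2846 and 2672 TPM in vehicle, 2829 and 2868 under MASM7 and 3103 and 3123 under MFI8. Listed ferritin pseudogenes, which share sequence with these genes, held at most 52 counts in any library. Ftl1 and Slc11a2 each overlap a gene on the opposite strand, with at most 7 and 5 counts.

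Tfrc, the transferrin receptor (chromosome 16, 32608920 to 32632794), was counted 11078 and 13758 times in vehicle, 14301 and 14869 under MASM7 and 7739 and 12011 under MFI8. In CPM it was at 486 and 547 in vehicle, 484 and 489 under MASM7 and 337 and 389 under MFI8. Both MFI8 libraries were below the other 4, by more than the distance between replicates of any group (mean 363 ± 36.9 CPM under MFI8 and 516 ± 43.2 in vehicle, SD, n = 2). The log2 fold change under MFI8 was -0.51 (standard error 0.076, 95% interval -0.68 to -0.34, edgeR adjusted p = 0.0924), and the gene ranked 6 of 14290 by unadjusted p (6.2e-05). DESeq2 gave -0.51 with an adjusted p of 1.9e-06. With the replicate block the edgeR adjusted p was 4.8e-08. Without MFI8 replicate 2 the log2 fold change was -0.62 (edgeR adjusted p = 0.0452). With any of the other 5 libraries left out the edgeR adjusted p was between 0.103 and 0.401, and over all 6 the log2 fold change lay between -0.62 and -0.41. Set against ferritin heavy chain per length, Tfrc reached 24.1 and 30.1 TPM per 100 TPM of Fth1 in vehicle, 22.9 and 24.0 under MASM7 and 15.7 and 19.3 under MFI8. Of the genes whose elements were printed above, Tfrc, which has them after the coding region, was lower and Ftl1, which has one before it, was higher in every MFI8 library when set against every vehicle library. Fth1, which also has one before the coding region, overlapped between these groups. Of all genes tested, 20.9% were higher and 19.3% lower without overlap under MFI8. Whether the elements have a part in these mRNA levels was not tested.

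Slc11a2, the divalent metal transporter (chromosome 15, 100387898 to 100425072), was at 122 and 128 CPM in vehicle, 126 and 135 under MASM7 and 112 and 115 under MFI8. As for Tfrc, both MFI8 libraries were the lowest of the 6, at a log2 fold change of -0.14 (95% interval -0.27 to -0.016, unadjusted p = 0.0310 and adjusted p = 0.451 from edgeR). Slc40a1, or ferroportin (chromosome 1, 45908068 to 45926523), gave 1 and 5 counts in vehicle, 7 and 5 under MASM7 and 12 and 20 under MFI8. It passed the filter on low counts, a limit of about 0.364 CPM in 2 libraries, through the MFI8 group alone, so its place among the genes tested already required a higher value there. From the summed counts the ratio of MFI8 to vehicle was 4.75 (exact 95% interval 1.96 to 13.9, counting error only). This interval leaves out the spread between libraries and the effect of the filter, so it is no test. The fitted log2 fold change of Slc40a1, for which the filter leaves no valid test, was 2.20. It was 1.55 without vehicle replicate 1 and 3.62 without vehicle replicate 2. At 0.209 and 0.259 TPM under MFI8 the exporter was still the least abundant of the 10 mRNAs.

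Ireb2, which encodes iron regulatory protein 2 (chromosome 9, 54863789 to 54912530), read 174 and 176 CPM in vehicle, 172 and 153 under MASM7 and 165 and 158 under MFI8. All 4 treated libraries were below both vehicle libraries, yet the 95% intervals of the log2 fold changes reached over 0, at -0.26 to 0.025 under MFI8 and -0.25 to 0.035 under MASM7. Ncoa4, the receptor that takes ferritin to the lysosome (chromosome 14, 32159865 to 32179855), was at 16.4 and 18.6 CPM in vehicle, 17.5 and 16.5 under MASM7 and 16.4 and 18.5 under MFI8. Its log2 fold change under MFI8 was -9.4e-04 (95% interval -0.23 to 0.23). A pseudogene, Ncoa4-ps, held 108 to 170 counts against 374 to 571 of Ncoa4, and reads could be split between them.

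**Figure D2:**
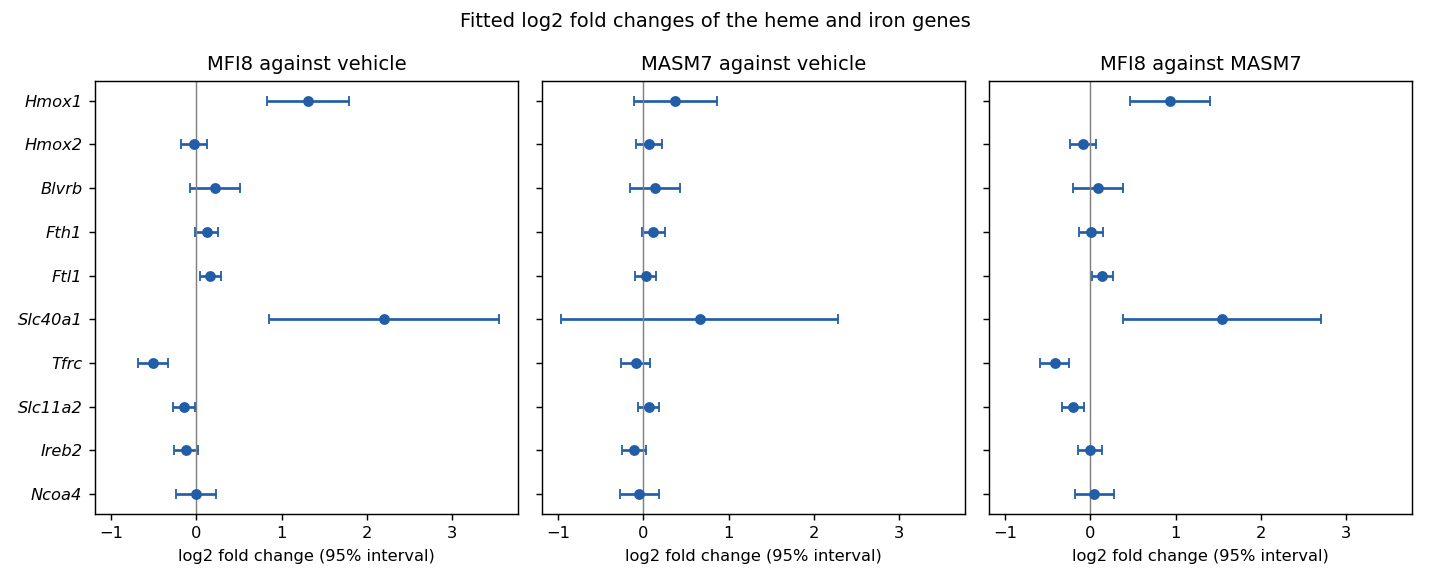
Log2 fold change of each heme and iron gene in 3 comparisons from the edgeR fit of 6 libraries, with points for the estimate and bars for its 95% interval. With MFI8 against vehicle the interval of Hmox1 lies at 0.83 to 1.79 and that of Tfrc at -0.68 to -0.34, while every interval of MASM7 against vehicle includes 0.

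MASM7 was compared with the same 2 vehicle libraries, to see how the genes read when mitofusins are activated. The largest difference at a well-counted gene was again at Hmox1, with a log2 fold change of 0.38 (95% interval -0.11 to 0.86, edgeR adjusted p = 0.564, and 0.0170 with the replicate block), and both MASM7 libraries were above both vehicle libraries. This value was 0.23 without MASM7 replicate 2 and at most 0.51 with another library left out. Fth1 was the other gene without overlap on the higher side, with a log2 fold change of 0.12 (95% interval -0.021 to 0.25), and Ireb2 was the only one on the lower side, at -0.11. Tfrc was at -0.087 (95% interval -0.26 to 0.083) with overlapping libraries. None of the 10 members passed at an adjusted p of 0.05 (0% of the genes tested) and none at an unadjusted p of 0.05 (10.2% of the genes tested, 5.32% higher and 4.88% lower) in edgeR. DESeq2 (0.00747% of the genes it tested) and limma on log2(TPM + 1) also called 0 members, and edgeR with the replicate block called 1, Hmox1, and 3.88% of the genes tested. The 2 genes higher without overlap compare with 21.2% of the genes tested, and the 1 lower with 21.6%. Over the 10 genes the median here was 0.063, against 6.7e-04 over all genes tested.

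The difference between the compounds was tested directly in the same fit. Hmox1 was higher under MFI8 than under MASM7 by a log2 fold change of 0.94 (95% interval 0.47 to 1.40, unadjusted p = 0.0012 and adjusted p = 0.336 from edgeR), which became 1.28 without MFI8 replicate 1 (edgeR adjusted p = 2.4e-04) and 0.47 without MFI8 replicate 2. At Tfrc it was -0.42 (95% interval -0.59 to -0.25, adjusted p = 0.276 from edgeR and 3.3e-04 from DESeq2), and at Slc11a2 -0.21 (95% interval -0.33 to -0.079, edgeR adjusted p = 0.515). With the replicate block the edgeR adjusted p was 5.5e-08 for Hmox1, 9.0e-07 for Tfrc and 0.0110 for Slc11a2, the 3 members called, against 3.07% of the genes tested. For Ftl1 the log2 fold change was 0.14 (95% interval 0.015 to 0.26). For Fth1 it was 0.0059, with an interval of -0.13 to 0.14, for Hmox2 the interval was -0.25 to 0.060 and for Ireb2 -0.15 to 0.13. The summed counts of Slc40a1 gave a ratio of 2.97 (exact 95% interval 1.49 to 6.34, counting error only), and this interval too is no test. In edgeR, 0 of the 10 genes passed at an adjusted p of 0.05 (0% of the genes tested) without the block. Leaving out Slc40a1 as before, 2 of the other 9 were higher and 2 lower at an unadjusted p of 0.05, against 4.23% and 2.95% of the genes tested (7.18% in all). DESeq2 called 1 member, Tfrc, and 0.231% of the genes it tested, and limma on log2(TPM + 1) called 0. Both MFI8 libraries were above both MASM7 libraries for 2 of the 9 (19.6% of the genes tested) and below them for 2 (19.6%). The median of the 9 genes was 0.0059, against -0.0015 over all genes tested.

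Other genes of heme and iron handling were read from 8 lists by role, which hold 94 genes besides the 10, 74 of them with enough counts to be tested. Of the 74, 7 were higher and 2 lower under MFI8 at an unadjusted p under 0.05, and 2 were higher and 4 lower under MASM7, beside 5.21% higher and 4.65% lower of all genes tested under MFI8 and 5.32% and 4.88% under MASM7. In edgeR 0 passed an adjusted p of 0.05 for either compound, and with the replicate block 8 were higher and 1 lower under MFI8 (5.04% of all genes tested called) and 2 higher and 1 lower under MASM7 (3.88%). Their median log2 fold change was 0.033 under MFI8 and 0.015 under MASM7. Many specialised iron genes had too few counts, among them the hormone Hamp, the copper oxidases Heph and Hephl1, the mitochondrial ferritin Ftmt and the serum proteins Trf and Hp, with at most 1 count in any library.

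Heme synthesis, from Alas1 to Fech, had 11 genes tested. With MFI8 0 of them had an unadjusted p under 0.05, beside 9.86% of all genes tested. The median log2 fold change under MFI8 was 0.077, with a range of -0.075 to 0.22. With MASM7 the median was 0.079 and 1 gene was higher at an unadjusted p under 0.05, beside 5.32% of all genes tested. This was Alad, which joins the first precursors into a pyrrole ring, at 107 and 93.1 CPM in vehicle, 113 and 124 under MASM7 and 115 and 110 under MFI8. The log2 fold change of Alad was 0.25 under MASM7 (edgeR adjusted p = 0.473, and 0.0168 with the replicate block) and 0.16 under MFI8.

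Among 9 tested genes of heme degradation and transport, Slc48a1 was the 1 with an unadjusted p under 0.05 for MFI8, on the higher side, beside 5.21% of all genes tested. It encodes a transporter that carries heme out of endosomes and lysosomes. Its values were 215 and 209 CPM in vehicle, 226 and 233 under MASM7 and 258 and 278 under MFI8, with the 3 groups apart in the same order as for Hmox1. The log2 fold change under MFI8 was 0.34 (standard error 0.055, 95% interval 0.22 to 0.46, edgeR adjusted p = 0.0924, and 1.5e-05 with the replicate block), and under MASM7 it was 0.12 (edgeR adjusted p = 0.501). The median of the 9 genes was 0.039 under MFI8.

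Iron uptake and reduction had 4 genes tested, with a median log2 fold change of 0.026 under MFI8. None had an unadjusted p under 0.05, beside 9.86% of all genes tested. Among 7 tested genes of iron storage, chaperones and release, the median was -0.017 under MFI8, with none at that threshold (9.86% of all genes tested). In the same list the autophagy receptor Tax1bp1 had a log2 fold change of -0.12 under MASM7 (165 and 169 CPM in vehicle, 156 and 151 under MASM7, edgeR adjusted p = 0.482). In the list of iron regulation the 6 tested genes had a median log2 fold change of -0.037 under MFI8, with 1 lower at an unadjusted p under 0.05 (4.65% of all genes tested), and of -0.12 under MASM7, with 2 lower (4.88%). Hif1a, the oxygen-regulated transcription factor subunit, was at -0.13 under MFI8 and -0.14 under MASM7, from 145 and 153 CPM in vehicle, 139 and 131 under MASM7 and 135 and 136 under MFI8.

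Mitochondrial iron import and iron-sulfur cluster assembly had 20 genes tested. Their median log2 fold change was -0.036 under MFI8, with 8 higher and 12 lower and none at an unadjusted p under 0.05. With MASM7 it was 0.035, with 11 higher and 9 lower. The mitochondrial iron importer Slc25a28 was at 45.6 and 45.4 CPM in vehicle and 49.0 and 53.7 under MASM7, a log2 fold change of 0.18 (edgeR adjusted p = 0.479).

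**Figure D3:**
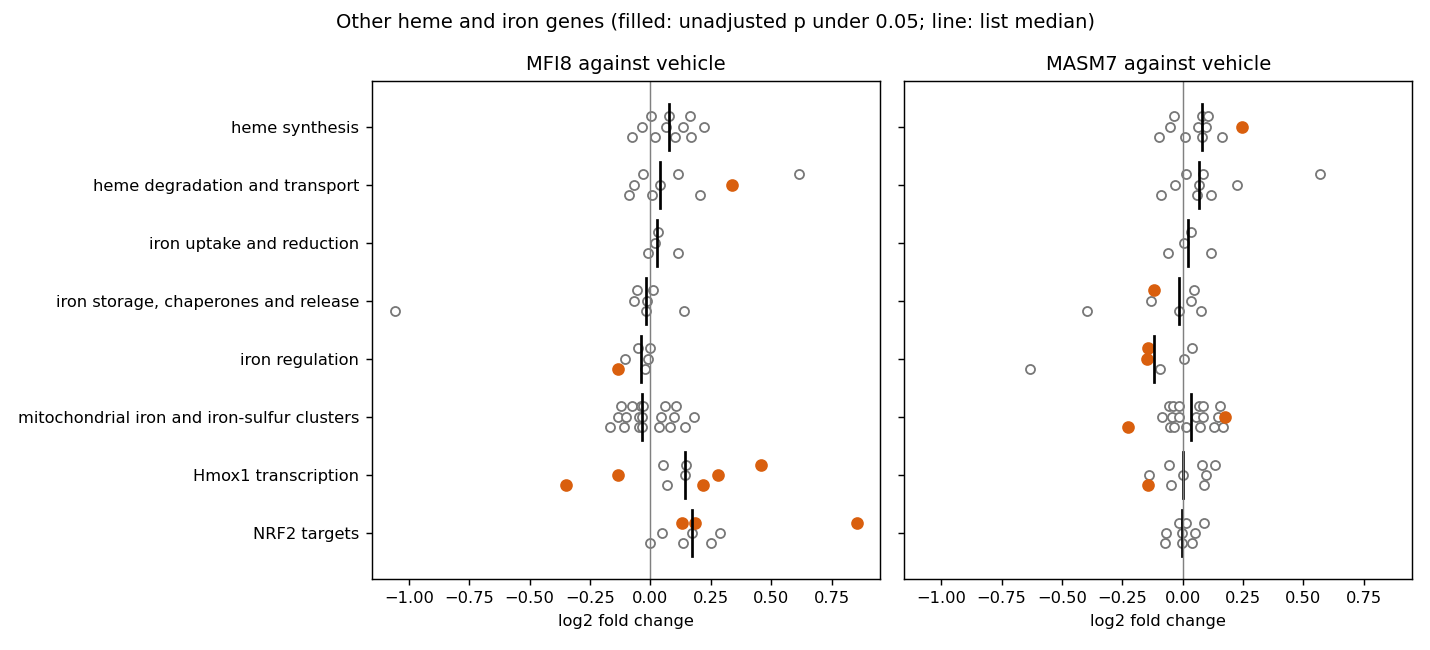
Log2 fold change of the other heme and iron genes by list, for MFI8 against vehicle and MASM7 against vehicle, with 1 point per gene tested, filled where the unadjusted edgeR p is under 0.05, and a line at the list median. With MFI8 most lists centre near 0, with medians of 0.14 for regulators of Hmox1 transcription and 0.17 for NRF2 targets.

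Regulators of Hmox1 transcription stood on both sides of vehicle under MFI8. Of 9 tested genes, 3 were higher and 2 lower at an unadjusted p under 0.05, beside 5.21% and 4.65% of all genes tested, with a median log2 fold change of 0.14. Nfe2l2, which encodes NRF2, was at 104 and 92.8 CPM in vehicle, 92.3 and 85.9 under MASM7 and 78.6 and 75.5 under MFI8. Both MFI8 libraries were the lowest of the 6, and the log2 fold change was -0.35 (95% interval -0.51 to -0.20, edgeR adjusted p = 0.202, and 7.0e-05 with the replicate block). Mafg, a small MAF partner of both NRF2 and BACH1, was at 144 and 138 CPM in vehicle, 152 and 148 under MASM7 and 167 and 176 under MFI8, a log2 fold change of 0.28 (95% interval 0.16 to 0.40, edgeR adjusted p = 0.189, and 3.2e-04 with the replicate block). Hif1a, described above, is the other lower gene of this list. Of 9 NRF2 targets 3 were higher and 0 lower at an unadjusted p under 0.05 under MFI8 (5.21% and 4.65% of all genes tested, median 0.17 in the list), and 0 under MASM7 (median -0.0016). Slc7a11, the cystine importer, had the smallest p, with 11.7 and 12.8 CPM in vehicle, 13.6 and 12.4 under MASM7 and 19.8 and 24.3 under MFI8 (log2 fold change 0.86, edgeR adjusted p = 0.0924, and 1.7e-06 with the replicate block). The mRNA of NRF2 itself thus stood lower under MFI8 while Hmox1 and Slc7a11 stood higher, and NRF2 protein was not measured here.

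RefSeq promoter windows of 300 bases on GRCm38.p6, from 250 before to 50 after a start, were found for 7 of the 10 genes, in 14 windows. Entries were missing for Hmox1, Slc40a1 and Slc11a2. The antioxidant response element core TGACNNNGC, searched on both strands, was in 1 of these windows, at an internal start of Ncoa4, and in 12.4% of all 32851 windows. The AP-1 motif TGACTCA, which can overlap it, was in none of the 14 and in 5.20% of all windows.

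Genes that followed Hmox1 most closely were taken by the distance between log2 CPM profiles over the 6 libraries, each centred on its own mean. Among 11079 other genes with a mean log2 CPM of at least 1, the nearest were Fosb (distance 0.34), Chac1 (0.37), Trib3 (0.39), Gadd45g (0.42) and Gadd45a (0.46). Fosb belongs to the AP-1 family, Chac1 degrades glutathione, Trib3 is a pseudokinase induced by stress and the Gadd45 genes encode stress sensors. Chac1, for example, was at 13.2 and 14.5 CPM in vehicle, 15.0 and 23.5 under MASM7 and 21.4 and 40.2 under MFI8. As at Hmox1, MFI8 replicate 2 was the highest library for all 5 genes. The choice by likeness to Hmox1 favours this, so it is no separate result. The points of a profile also share libraries and depth. Among the other members Ftl1 ranked 869 by this distance and Tfrc 10861.

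**Figure D4:**
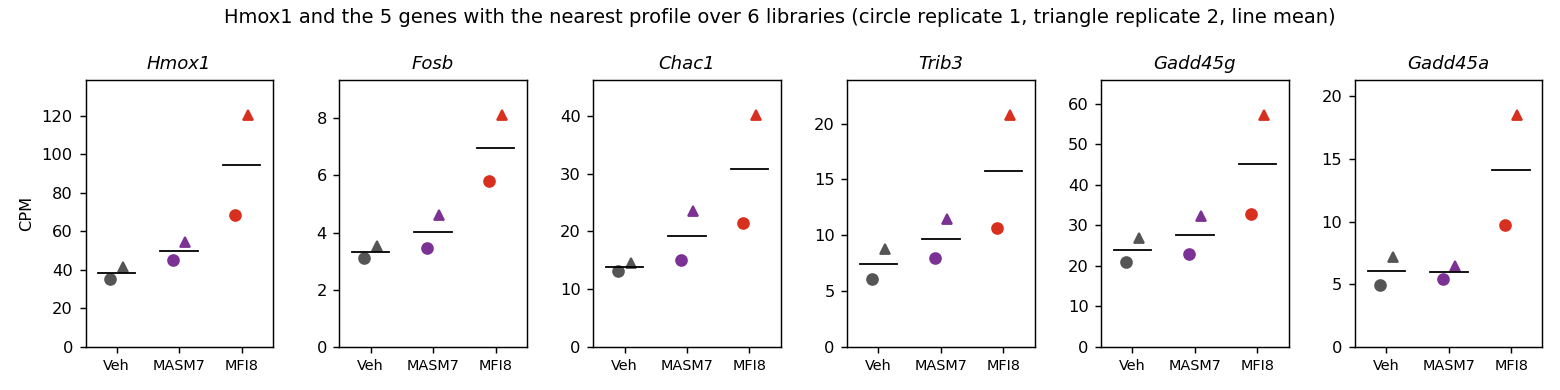
CPM of Hmox1 and of the 5 genes with the nearest profile in each library of vehicle (Veh), MASM7 and MFI8, on linear axes from 0, with a circle for replicate 1, a triangle for replicate 2 and a line at the mean. In all 6 panels the highest point is MFI8 replicate 2, at 121 CPM for Hmox1 and 40.2 CPM for Chac1. The 5 genes were picked for likeness to Hmox1, which favours a shared highest library.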

How the data were processed

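RNA was taken from WT MEFs treated with vehicle, MASM7 or MFI8, with 2 libraries per group made by a TruSeq kit from poly(A) RNA. The authors trimmed reads with Trimmomatic, aligned them to mm10/GRCm38 with STAR, and deposited whole-number counts per gene from featureCounts, along with TPM values (transcripts scaled to the same sum in each library). Their normalized counts were not used here, and neither the annotation release nor the strand setting is given in the sources used here. Counts were fitted in edgeR 4.0.16 (R 4.3.3) with filterByExpr, TMM factors, 1 coefficient per group, all 6 libraries and the quasi-likelihood F test (Benjamini-Hochberg over 14290 genes, threshold 0.05). The code was tested on simulated data. Standard errors are the log2 fold change over the square root of F, and 95% intervals use the t quantile of the fit. Depth was 22791792 to 30677751 counts per library. With 2 against 2 libraries an exact permutation test cannot go below 0.333, so none was made. Alternatives were other scalings and filters, 2 groups only, a replicate block, DESeq2 1.42.0, limma 3.58.1 on log2(TPM + 1) or log2(TPM + 0.1), and each library left out. Replicate numbers come from the titles, which do not say what a number shares. Differences between replicates 2 and 1 correlated in every pair of groups (r across genes 0.152 to 0.188, and 0.508 to 0.621 over the more abundant 7145 genes). With 2 libraries a group, each pair of groups gives 1 such correlation. Blocked values therefore stand beside the calls they change. Members and lists were chosen with earlier results of these data known. All 10 members are named, and from each other list the gene with the smallest unadjusted p in each direction and comparison with vehicle, if that p is under 0.05. A gene that this rule names in the mitochondrial list is not reported here. The same vehicle libraries serve both compounds. Coordinates are those of GENCODE vM21, on the same build, matched by symbol.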

Additional observations from a re-analysis of the deposited data

How the results depend on the processing

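Depth limits Slc40a1, with at most 20 counts, and 2 libraries per group leave wide intervals for Hmox1. Over all alternatives 396 values of single members kept their direction and their side of the threshold, 19 gained significance and 25 changed sign, and the cause was not tested. In the order MFI8 against vehicle, MASM7 against vehicle and MFI8 against MASM7, edgeR called 0, 0 and 0 genes. It called 256, 127 and 168 without the filter on low counts, DESeq2 called 48, 2 and 29, and edgeR with only the groups compared called 0, 1 and 2. Of the 10 members, 2 (Hmox1 and Tfrc), 1 (Hmox1) and 2 (Hmox1 and Tfrc) were called without the filter, and 1, 0 and 1 (Tfrc) by DESeq2. With the replicate number as a block, 720, 554 and 439 genes were called, and 4 (Hmox1, Ftl1, Slc40a1 and Tfrc), 1 (Hmox1) and 3 (Hmox1, Tfrc and Slc11a2) members, where the call of Slc40a1 is void because the gene passed the filter only through its MFI8 libraries. For the 10 members the block changed no other call.

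Leaving out each library in turn gave 0 to 26, 0 to 2 and 0 to 24 genes called, the highest without MFI8 replicate 1 for both comparisons with MFI8, and 0 to 2, 0 to 0 and 0 to 1 members. The members' median ranged from 0.022 to 0.10, from 0.013 to 0.078 and from -0.037 to 0.081, and for MFI8 against vehicle it was -0.0070 with at least 10 counts in every library, which drops Slc40a1.

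The members that changed sign were as follows. For MFI8 against vehicle, Ncoa4 was 0.0093 with library size alone, 0.0068 without the filter, and 0.021 and 0.023 with limma on log2(TPM + 1) and log2(TPM + 0.1). With libraries left out Ncoa4 ranged from -0.093 to 0.095 and Hmox2 from -0.081 to 0.020. For MASM7 against vehicle the ranges were -0.015 to 0.068 for Ftl1, -0.026 to 0.31 for Blvrb, -0.17 to 0.0019 for Tfrc and -0.13 to 0.050 for Ncoa4. For MFI8 against MASM7, Ireb2 was 0.011 with library size alone and 0.034 and 0.035 with limma, and Fth1 was -0.0066 without the filter and -4.2e-04 with at least 10 counts in every library. There the ranges were -0.090 to 0.074 for Ireb2, -0.033 to 0.21 for Blvrb, -0.041 to 0.053 for Fth1 and -0.048 to 0.13 for Ncoa4.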
